A study of Mus musculus with 12 samples.

Results

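Secreted WNT inhibitors are extracellular proteins that bind WNT ligands or their receptors, and 7 of their genes (Dkk1, Dkk2, Dkk3, Sfrp1, Sfrp2, Wif1 and Frzb) are described here, out of 20432 genes measured. The members were selected on the lower levels of Dkk2 and Dkk3 in Cre than in parental cells of these lines, so differences between Cre and parental cells in these 7 genes are given as a description, without a test. The samples are 6 mouse pancreatic ductal adenocarcinoma cell lines, named 52205, 52419, 52424, 53105, 53369 and 53371. Each line gave 1 poly(A) RNA library from Cre cells, labelled JAK1 knockout, and 1 from parental cells, labelled wild type. Cre cells are the parental line after infection with a pBabe-Cre-puro retrovirus and selection in rising puromycin (2, 4 and 7 µg/ml), and parental cells had neither step. JAK1 is the tyrosine kinase that carries interferon and interleukin receptor signals to STAT transcription factors. The labels name no other allele of these lines, cells given a virus without Cre were not analysed here, and so Jak1 deletion, infection, drug selection and time in culture cannot be told apart.

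WNT ligands bind a frizzled receptor together with the co-receptor LRP5 or LRP6, which stabilises beta-catenin and switches on TCF/LEF target genes. Of the dickkopf proteins (DKK), DKK1 and DKK2 bind the LRP co-receptor, whereas the secreted frizzled-related proteins (SFRP, FRZB) and WIF1 bind WNT ligands themselves. Dkk1 is the classical antagonist, DKK2 can inhibit or activate the pathway depending on its co-receptors, and DKK3 is the most divergent family member, with no settled role as a WNT antagonist. Several of them, among them DKK3 and the SFRP genes, are expressed by fibroblasts and are often silenced by promoter methylation in carcinomas.

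Libraries held 11.5 to 18.0 M reads in genes (M, 1e+06), and levels are the deposited normalised counts per 1e+06 reads (CPM), where 1 read was worth 0.0569 to 0.0896 CPM. Jak1 transcript was at 104 to 234 CPM in Cre libraries and 125 to 207 CPM in parental libraries, a log2 change of -0.04. Which exons Cre removes is not in the labels, so this total cannot be used to check the deletion. Ductal keratins marked 4 of the lines as labelled, but line 52419 had almost no Krt8 (0.538 CPM in Cre and 0.818 CPM in parental cells) or Cdh1 (0.615 CPM in Cre and 0.372 CPM in parental cells). Other ductal markers were present in 52419. Krt18 was at 188 CPM in Cre and 253 CPM in parental cells, Krt19 at 19.9 CPM in Cre and 15.5 CPM in parental cells, and Sox9 at 149 CPM in Cre and 171 CPM in parental cells. Line 53369 kept Krt8, Krt18, Krt19 and Sox9 but had little Krt7 (4.79 CPM in Cre and 1.38 CPM in parental cells). Its Epcam was at 0.50 CPM in Cre and 0.612 CPM in parental cells. Epcam was also low in line 53105, at 2.14 CPM in Cre and 1.99 CPM in parental cells. Endocrine markers summed to at most 0.0768 CPM in Cre and 0.0788 CPM in parental libraries, and endothelial markers to at most 5.32 CPM in Cre and 6.85 CPM in parental libraries. Leukocyte markers summed to 1.48 to 9.59 CPM in Cre and 1.99 to 23.5 CPM in parental libraries, and acinar markers to 1.86 to 18.8 CPM in Cre and 1.55 to 13.2 CPM in parental libraries. These sums cover only the markers among the genes measured: 2 of 5 endocrine, 5 of 5 endothelial, 4 of 5 leukocyte and 2 of 5 acinar markers. In bulk RNA, fewer cells that express a gene and less RNA per cell cannot be told apart.

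The 7 genes differed widely in how much they were transcribed. Per kb of merged exon, Dkk2 was the highest member in 8 of 12 libraries, Dkk3 in both libraries of line 53371, Dkk1 in Cre cells of line 52424 and Sfrp1 in its parental cells. The 7 levels summed to between 1.99 and 67.9 CPM per kb in Cre libraries and between 2.18 and 163 CPM per kb in parental libraries. In line 52419 Dkk2 made up 86.8% of that sum in Cre cells and 88.5% in parental cells. Dkk1, Dkk2, Dkk3 and Sfrp1 passed the filter on low values (at least 1 CPM in at least 6 libraries), whereas Sfrp2, Frzb and Wif1 did not.

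**Figure D1:**
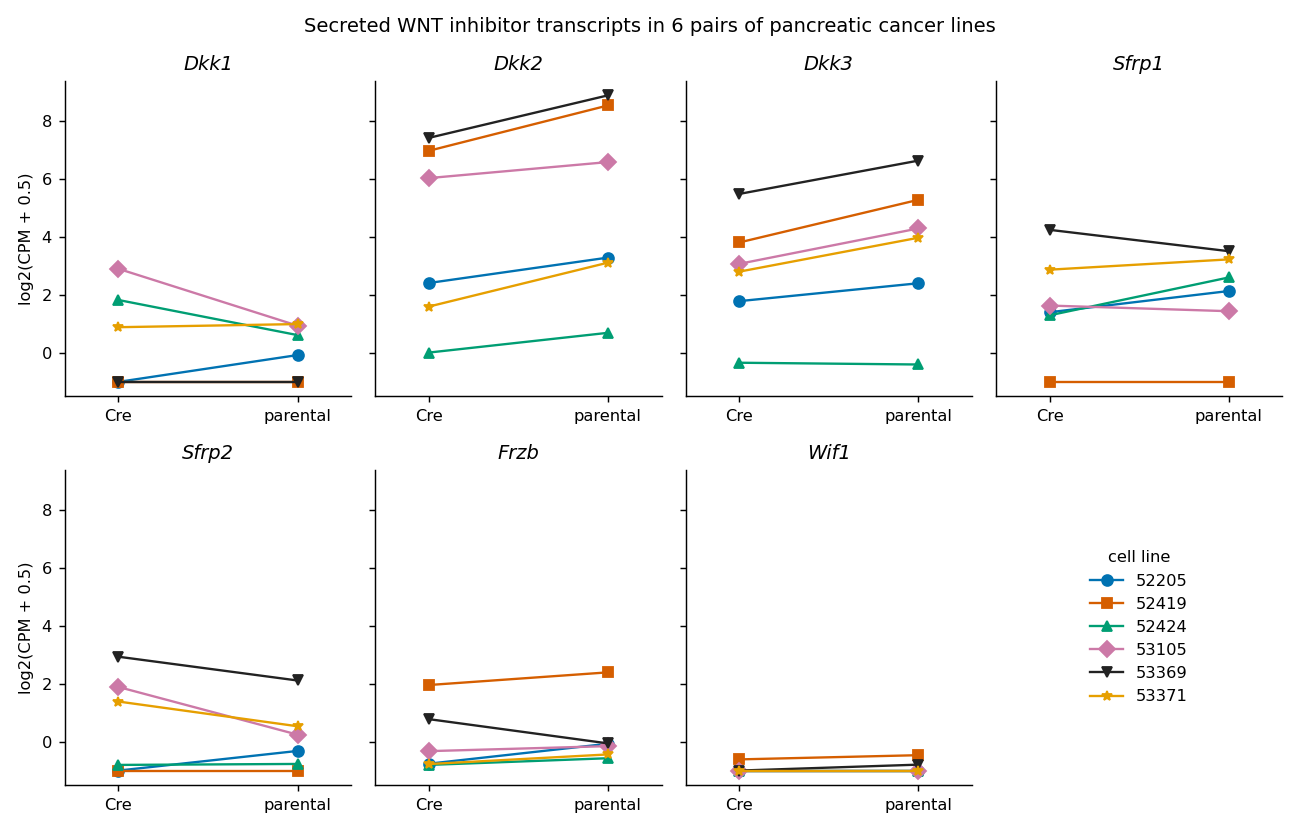
Level of each of the 7 genes as log2(CPM + 0.5), Cre library on the left and parental library on the right, 1 coloured line per cell line. Dkk2 lies lower in Cre than in parental cells in all 6 lines and Dkk3 in 5, Dkk1 and Sfrp2 are higher in Cre cells of some lines, and Wif1 stays at the bottom of the axis.

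Dkk2 (Entrez 56811, chr3:132085266-132180304, GRCm38) had the highest levels of the family and was lower in Cre cells of every line. It was at 172 CPM in Cre against 477 CPM in parental cells of line 53369, and at 126 CPM in Cre against 375 CPM in parental cells of line 52419. In line 53105 it was at 65.4 CPM in Cre and 96.2 CPM in parental cells. These 3 lines held nearly all of the Dkk2 reads, in both groups. Of the other lines, 52205 had 4.84 CPM in Cre and 9.31 CPM in parental cells. Line 53371 had 2.54 CPM in Cre and 8.19 CPM in parental cells. Line 52424 had 0.509 CPM in Cre and 1.12 CPM in parental cells, from 7 reads in Cre and 13 in parental cells. The groups overlap over most of their range, though parental cells of 53369 and 52419 lie above every Cre library and Cre cells of 52424 below every parental one. The lines differ from each other by far more than Cre and parental cells of 1 line do.

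Within pairs the Dkk2 level of Cre cells was 31.0% of parental in 53371, 33.7% in 52419, 36.1% in 53369, 45.5% in 52424, 52.0% in 52205 and 68.0% in 53105. The exact 95% interval of this ratio, which covers counting error only, lay below 1 in 5 lines, and in 52424 it ran from 0.154 to 1.23. On the log2(CPM + 0.5) scale, which understates the change of low genes, the mean change over pairs was -1.11 ± 0.46 (SD, n = 6 pairs), a 2.16-fold lower level. Group means were 61.9 ± 73.3 CPM in Cre and 161 ± 211 CPM in parental libraries (SD, n = 6 each), and these are carried by lines 53369 and 52419. Of all 12734 genes that passed the filter, 4.56% were lower in 6 of 6 pairs and 0.385% had a mean log2 change of -1 or lower. Dkk2 was among the genes the list was built on, so nothing is read from its place among them.

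Since Dkk2 had the highest level and was lower in every pair, the RefSeq window around its start is shown with that of Dkk1, which was higher in Cre cells of 2 lines. Each window holds 250 bases before and 50 bases from the annotated start, 5′ to 3′ on the strand of the gene (GRCm38.p6; Dkk2, chr3:132085042-132085341, plus strand; Dkk1, chr19:30549447-30549746, minus strand). Capitals mark TATAAA, the core of a TATA box.
Dkk2: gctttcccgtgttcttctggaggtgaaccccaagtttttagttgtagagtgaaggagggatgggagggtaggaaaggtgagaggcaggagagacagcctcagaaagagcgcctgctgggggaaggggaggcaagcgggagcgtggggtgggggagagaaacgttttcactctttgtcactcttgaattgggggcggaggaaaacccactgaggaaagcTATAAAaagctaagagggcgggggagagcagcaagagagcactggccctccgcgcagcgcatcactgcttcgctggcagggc
Dkk1: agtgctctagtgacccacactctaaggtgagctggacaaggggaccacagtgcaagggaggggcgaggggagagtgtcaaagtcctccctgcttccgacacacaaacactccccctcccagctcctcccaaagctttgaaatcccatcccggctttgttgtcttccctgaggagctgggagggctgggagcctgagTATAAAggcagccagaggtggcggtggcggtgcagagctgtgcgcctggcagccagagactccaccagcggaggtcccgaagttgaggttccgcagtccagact
The TATAAA match begins at position -32 relative to the start of the window's transcript in Dkk2 and at -54 in Dkk1. For Dkk2 that start lies inside the gene coordinates given above, past their first base, so -32 is not the distance to that base. Searched on both strands, TATAAA occurs in 13.6% of all 32851 RefSeq windows of this length. It was added to the search after these windows had been seen. The STAT-type palindrome TTCNNNGAA (8.30% of all windows), the TCF/LEF-type CTTTGAT (3.73%) and the AP-1-type TGANTCA (7.81%) were not found in either window. RefSeq windows were at hand for 5 of the 7 genes, Dkk1, Dkk2, Sfrp2, Wif1 and Frzb, and among them TTCNNNGAA occurred once, as TTCTCGGAA at -87 in Frzb. The 4 motifs do not overlap in these 5 windows, and CTTTGAT and TGANTCA had no match in any of them.

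Dkk3 (Entrez 50781, chr7:112116019-112159482) ran close to Dkk2. It was at 44.6 CPM in Cre against 99.6 CPM in parental cells of line 53369, at 13.6 CPM in Cre against 38.6 CPM in parental cells of 52419, and at 7.95 CPM in Cre against 19.2 CPM in parental cells of 53105. Line 53371 had 6.51 CPM in Cre and 15.3 CPM in parental cells. Line 52205 had 2.96 CPM in Cre and 4.81 CPM in parental cells. Cre cells were lower in these 5 lines, and in each the counting interval of the ratio lay below 1. In line 52424 the gene was barely transcribed, with 4 reads in Cre and 3 reads in parental cells, and the interval of the ratio from 0.191 to 7.69 allows either direction.

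Over the 6 pairs the mean log2 change of Dkk3 was -0.93 ± 0.56 (SD, n = 6 pairs), and -1.13 without line 52424. Group means were 12.6 ± 16.3 CPM in Cre and 29.6 ± 36.8 CPM in parental libraries (SD, n = 6 each). Of all genes tested, 17.8% were lower in at least 5 of 6 pairs, and again nothing is read from this, as Dkk3 was one of the genes that prompted the list. In the 5 lines with more than a few reads the Cre level was between 35.2% and 61.5% of parental, beside 31.0% to 68.0% for Dkk2 over its 6 lines.

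**Figure D2:**
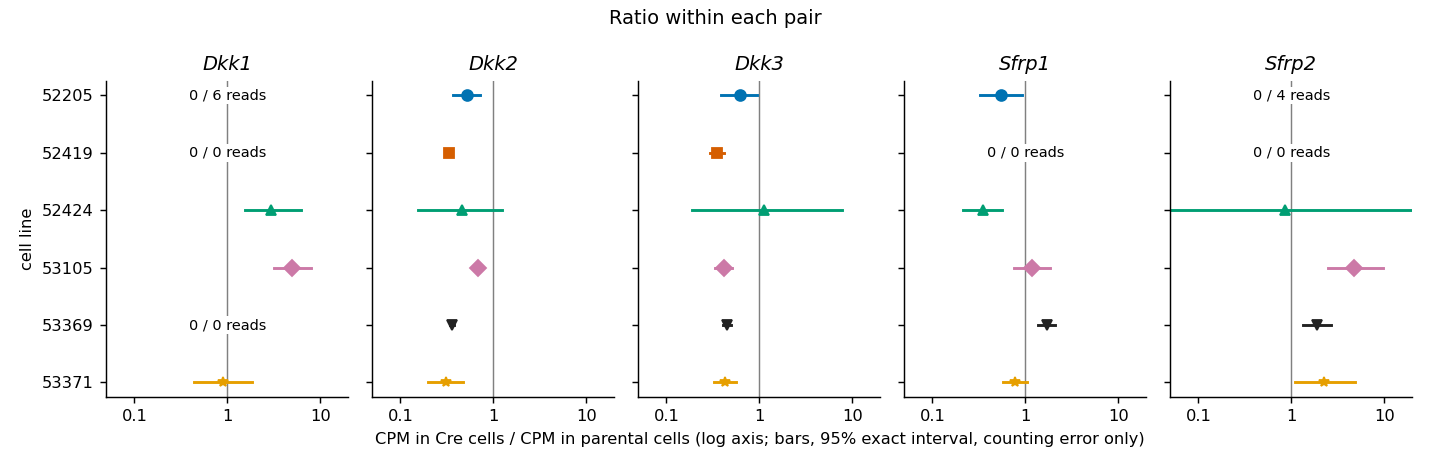
CPM in Cre cells divided by CPM in parental cells of the same line, on a log axis, with the exact 95% interval for counting error; where 1 library had no read, the reads in Cre and parental cells are written instead. For Dkk2, 5 of 6 intervals lie left of 1 and for Dkk3 5 of 6 do, while Sfrp1 has intervals on both sides and the Sfrp2 bar of line 52424, from 1 read in each library, runs past both ends of the axis.

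The order of lines was the same in Cre and in parental cells for both genes. Dkk2 ran 53369, 52419, 53105, 52205, 53371 and 52424 from high to low in both groups, and Dkk3 had the same order except for 53371 above 52205. With 1 library per line and group the order has no replicate spread, and some neighbours lie close: in parental cells Dkk2 had 124 reads in 52205 and 104 reads in 53371. Across the 12 libraries, which are 6 lines sampled in pairs, the log2 levels of Dkk2 and Dkk3 had a Pearson r of 0.90 and a Spearman rho of 0.90. In the 6 parental libraries alone r was 0.92, and in the 6 Cre libraries alone 0.88. Dkk2 exceeded Dkk3 per kb by 8.41-fold in Cre and 8.79-fold in parental cells of line 52419. In line 53371 Dkk2 was instead at 0.353 of the Dkk3 level in Cre and 0.486 in parental cells.

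**Figure D3:**
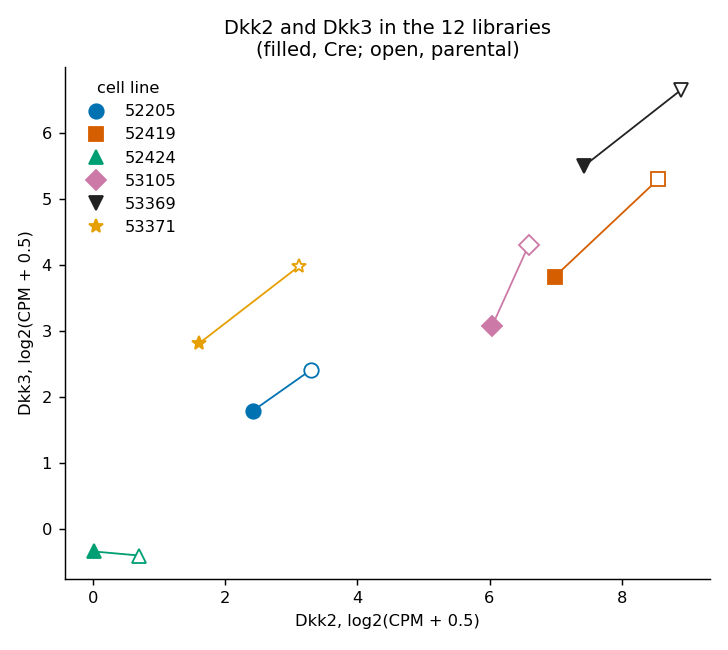
Dkk2 against Dkk3, both as log2(CPM + 0.5), with filled symbols for Cre libraries, open symbols for parental libraries and a line joining the pair. Lines 53369 and 52419 lie highest and 52424 lowest on both axes, and in 5 pairs the Cre symbol lies below and to the left of the parental one.

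The lines with the most Dkk2 and Dkk3 were those with the least E-cadherin transcript. Lines 53369 and 52419 had the lowest Cdh1 (E-cadherin, the epithelial adhesion molecule), at 36.4 and 0.615 CPM in Cre and 17.5 and 0.372 CPM in parental cells, against at least 425 CPM in Cre and 272 CPM in parental cells of the other lines. Vim (vimentin) was highest in 53369 in both groups (3816 CPM in Cre and 3238 CPM in parental cells), and 52419 came next in Cre cells (2608 CPM), whereas in parental cells it had 2353 CPM, below the 2548 CPM of 52205. Zeb1, a repressor of Cdh1, did not follow this order: in parental cells it was lowest in line 52424 (24.3 CPM) and highest in 53371 (94.9 CPM). Zeb2 came closer to this order. It was highest in 52419 (64.0 CPM in Cre and 77.6 CPM in parental cells), then 53369 (57.6 CPM in Cre and 59.4 CPM in parental cells). Line 52424 had the least Zeb2, at 11.6 CPM in Cre and 11.6 CPM in parental cells. Over the list of 8 mesenchymal markers, limma with Benjamini-Hochberg adjustment called 0, while 3 were lower in Cre cells at an unadjusted p under 0.05, where 8.18% of all genes tested were, and the median log2 change was -0.18. Their summed level was 2362 to 11265 CPM in Cre and 2861 to 10928 CPM in parental libraries. Of 8 fibroblast and stellate-cell markers 7 were in the table, all reached 1 CPM in some library, and their sum was 7.86 to 1284 CPM in Cre and 9.92 to 2193 CPM in parental libraries. The 4 of them that were tested went different ways: limma with Benjamini-Hochberg adjustment called 0, with log2 changes of -0.71 for Pdgfra, -0.45 for Col3a1, -0.05 for Pdgfrb and 0.13 for Col1a1. Pdgfra alone of the 4 was lower at an unadjusted limma p under 0.05, where 8.18% of all genes tested were. It was lower in Cre in 6 of 6 pairs, as were 4.56% of all genes tested, with a limma adjusted p of 0.0786. In line 53369 Pdgfra was at 83.5 CPM in Cre and 160 CPM in parental cells, Pdgfrb at 113 CPM in Cre and 106 CPM in parental cells, and Col1a1 at 101 CPM in Cre and 230 CPM in parental cells. In line 52419 Pdgfra was at 39.1 CPM in Cre and 67.0 CPM in parental cells, Pdgfrb at 53.6 CPM in Cre and 52.5 CPM in parental cells, and Col1a1 at 36.0 CPM in Cre and 22.2 CPM in parental cells. Mesothelial markers, nearly all from Msln, summed to 53.3 to 1444 CPM in Cre and 71.6 to 1168 CPM in parental libraries. The part of these marker levels in the Dkk2 and Dkk3 differences was not tested.

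The genes most like Dkk2 over the 12 libraries, by Pearson r of log2(CPM + 0.5) among the genes tested, were Trps1 (r = 0.99), Prrx1 (0.97) and Rcn1 (0.97). Trps1 and Prrx1 encode transcription factors and Rcn1 a calcium-binding protein of the endoplasmic reticulum. For Dkk2, 150 genes reached an r of 0.9, which the wide spread between lines makes easy to reach. Prrx1 ranged from 1.45 to 322 CPM in Cre and from 1.98 to 424 CPM in parental libraries. For Dkk3 the closest were the zinc finger gene Zfp354c (0.96), Mindy4 (0.96) and a gene with no symbol in the tables used (0.96), and 63 genes reached 0.9.

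Dkk1 (Entrez 13380, chr19:30545876-30549496), the classical LRP-binding antagonist, showed another pattern. It had 0 reads in both libraries of the lines with the most Dkk2, 52419 and 53369. In line 53105 it was at 7.00 CPM in Cre against 1.42 CPM in parental cells (118 reads in Cre, 25 in parental), a ratio of 4.92 with a counting interval of 3.18 to 7.92. In line 52424 it was at 3.05 CPM in Cre against 1.03 CPM in parental cells (42 reads in Cre, 12 in parental), a ratio of 2.96 with an interval of 1.53 to 6.17. Line 53371 had 1.35 CPM in Cre and 1.5 CPM in parental cells, and line 52205 had 0 reads in Cre and 6 reads in parental cells. Dkk1 was thus higher in Cre cells of 2 lines beyond counting error, lower in 2 within it and without reads in 2.

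The mean log2 change of Dkk1 was 0.36 ± 1.04 (SD, n = 6 pairs), a spread larger than the mean, and 0.036 without line 53105. Dkk1 passed the filter with exactly 6 libraries at 1 CPM. Across the 12 libraries its log2 level had an r of -0.45 with Dkk2 and -0.47 with Dkk3. The genes most like it were Galntl6 (0.94), Elapor1 (0.92) and Fam122a (0.92), and 7 genes reached 0.9. In line 53105 the same pair of libraries had lower Dkk2 and Dkk3 and higher Dkk1 in Cre than in parental cells.

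Sfrp1 (Entrez 20377, chr8:23411383-23449632), a frizzled-related protein that binds WNT ligands, differed in both directions. Line 53369 had 18.6 CPM in Cre and 10.9 CPM in parental cells, and line 53105 had 2.61 CPM in Cre and 2.22 CPM in parental cells. It was lower in Cre in the 3 other lines that transcribe it. Line 52424 had 1.96 CPM in Cre and 5.6 CPM in parental cells, line 52205 had 2.15 CPM in Cre and 3.91 CPM in parental cells, and line 53371 had 6.85 CPM in Cre and 8.90 CPM in parental cells. Counting intervals lay below a ratio of 1 in 52424 and 52205 and above it in 53369. Line 52419, the second highest in Dkk2, had 0 reads of Sfrp1 in both libraries, which at a floor of 3 reads allows up to 0.231 CPM in Cre and 0.223 CPM in parental cells.

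Group means of Sfrp1 were 5.36 ± 6.85 CPM in Cre and 5.26 ± 4.11 CPM in parental libraries (SD, n = 6 each). The mean log2 change was -0.24 ± 0.72 (SD, n = 6 pairs), smaller than its spread, and it was 0.096 with library weights and -0.031 without line 52424. The genes most like Sfrp1 were Epb41l2 (0.94), Pdlim5 (0.93) and Ndrg2 (0.93), with 12 genes at 0.9 or above.

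Sfrp2 (Entrez 20319, chr3:83765750-83774314) was low, reaching 1 CPM in 4 libraries, but was higher in Cre cells of each line that transcribed it at more than a few reads. It was at 7.14 CPM in Cre against 3.82 CPM in parental cells of 53369 (100 reads in Cre, 50 in parental), at 3.20 CPM in Cre against 0.682 CPM in parental cells of 53105 (54 in Cre, 12 in parental), and at 2.11 CPM in Cre against 0.945 CPM in parental cells of 53371 (25 in Cre, 12 in parental). The ratios were 1.87, 4.69 and 2.24, and their counting intervals, from 1.32 to 2.68, from 2.48 to 9.64 and from 1.08 to 4.88, lay above 1. Lines 52205, 52419 and 52424 held between 0 and 4 reads in any library. The mean log2 change was 0.44 ± 0.83 (SD, n = 6 pairs), and 0.19 without line 53105. In lines 53105, 53369 and 53371 Sfrp2 was thus higher in the same Cre libraries in which Dkk2 and Dkk3 were lower.

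Frzb (Entrez 20378, chr2:80411970-80447396), also called Sfrp3, was close to the detection limit outside line 52419. That line had 3.38 CPM in Cre and 4.76 CPM in parental cells (44 reads in Cre, 64 in parental). Line 53369 had 1.21 CPM in Cre and 0.459 CPM in parental cells (17 reads in Cre, 6 in parental), and the other lines were at most at 0.297 CPM in Cre and 0.451 CPM in parental cells. The estimate was lower in Cre in 5 pairs and higher in 1, but every counting interval included a ratio of 1, so no difference was detectable at this depth within any pair. The mean log2 change was -0.17 ± 0.53 (SD, n = 6 pairs).

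Wif1 (Entrez 24117, chr10:121034004-121100642), which binds WNT ligands through its WIF domain, was practically silent. Its 6 reads came as 2 in Cre and 3 in parental cells of line 52419 and 1 in parental cells of 53369, and 9 of 12 libraries had 0 reads. All libraries were at or below the floor of 3 reads, so no ratio is given.

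The rest of the WNT pathway was read from the same fit, which asks whether ligands, receptors and target genes differ between Cre and parental cells where Dkk2 and Dkk3 do. Of 86 genes in 6 lists, 82 were in the table and 53 were tested. Limma with Benjamini-Hochberg adjustment called 0 of the 53, against 0.0236% of all genes called lower and 0% called higher, and edgeR called 0. DESeq2 called 1 of the 53, Wnt7b, as lower, where it called 208 of all 12734 genes lower and 62 higher. At an unadjusted p under 0.05, 9 were lower, which is 17.0% of the 53 against 8.18% of all genes tested, and 0 were higher, against 6.96% of all genes. Without line 52205 these counts were 5 lower and 2 higher, and without cell line as a block 0 and 0. In all 6 pairs 5 of the 53 were lower in Cre, 9.43% against 4.56% of all genes tested. Estimates below 0 numbered 29 of 53, against 50.1% of all genes. The median log2 change over the 53 was -0.04, against -0.00024 over all genes tested.

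**Figure D4:**
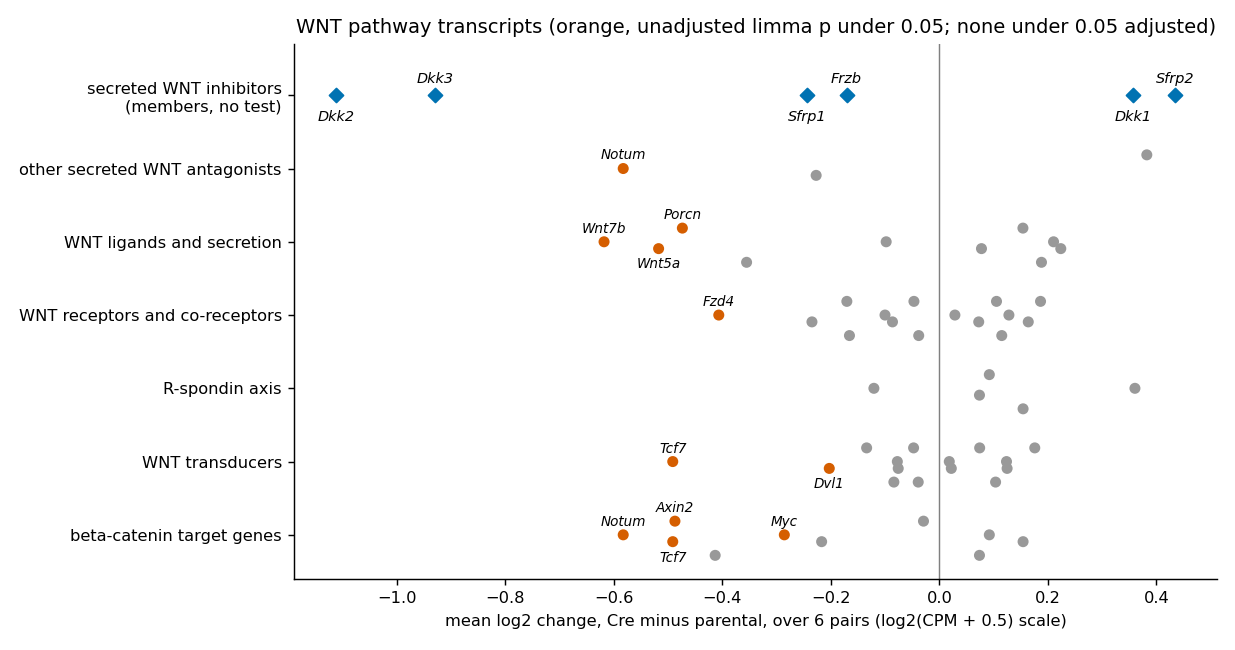
Mean log2 change (Cre minus parental, 6 pairs) of the 53 tested WNT pathway genes by list and, in the top line, of the 6 members with reads above the floor. Orange points have an unadjusted limma p under 0.05 and all lie left of 0, between -0.62 and -0.20; Dkk2 (-1.11) and Dkk3 (-0.93) lie further left than any pathway gene shown, and Tcf7, Notum, Lgr5, Rnf43 and Znrf3 appear in 2 lists.

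Among ligands, 5 of 10 tested genes had an estimate below 0 and 3 were lower at an unadjusted p under 0.05. Wnt7b was at 79.6 ± 56.3 CPM in Cre and 125 ± 110 CPM in parental libraries (SD, n = 6 each), a log2 change of -0.62 (SE 0.16, limma adjusted p = 0.195), with the lower value in Cre in 6 of 6 pairs. The largest difference was in line 52424, with 144 CPM in Cre against 330 CPM in parental cells. Its DESeq2 adjusted p was 0.0233, and over the other alternatives its adjusted p ran from 0.0890 with library weights to 1.00 without the block. Wnt5a, a ligand best known for signalling without beta-catenin, was at 17.9 ± 17.8 CPM in Cre and 26.2 ± 22.9 CPM in parental libraries, a log2 change of -0.52 (SE 0.15, limma adjusted p = 0.229), with the lower value in Cre in 6 of 6 pairs. Porcn, the acyltransferase that lipid-modifies WNT proteins, had a log2 change of -0.47 (SE 0.15, limma adjusted p = 0.257) and was lower in Cre in 5 of 6 pairs.

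Of 15 tested receptors and co-receptors 1, Fzd4, was lower at an unadjusted p under 0.05 (6.67%, against 8.18% of all genes tested). Fzd4, a frizzled receptor, was at 9.13 ± 6.19 CPM in Cre and 12.6 ± 8.30 CPM in parental libraries (log2 change -0.41, SE 0.16, limma adjusted p = 0.294). Ryk, a co-receptor, was higher in Cre in 6 of 6 pairs, as were 4.11% of all genes tested, with a log2 change of 0.11 (SE 0.066, limma adjusted p = 0.468). The binding partners of DKK1 and DKK2, named after their values were seen, were transcribed throughout. Lrp6 was at 156 ± 36.7 CPM in Cre and 157 ± 21.3 CPM in parental libraries, Lrp5 at 204 ± 66.9 CPM in Cre and 214 ± 80.6 CPM in parental libraries, and Kremen1 at 45.1 ± 7.81 CPM in Cre and 48.0 ± 5.23 CPM in parental libraries (SD, n = 6 each), with log2 changes of -0.04, -0.05 and -0.10. In the R-spondin axis, receptors and ligases set the amount of frizzled at the surface. Of its 5 tested genes 0 had an unadjusted limma p under 0.05, against 15.1% of all genes tested in either direction. Lgr4, an R-spondin receptor, was at 36.2 ± 19.9 CPM in Cre and 26.2 ± 8.48 CPM in parental libraries (log2 change 0.36, SE 0.21, limma adjusted p = 0.434), and its log2 change was 0.59 without line 52205 and 0.22 without 52424. The ligase gene Rnf43 had a log2 change of 0.15 (SE 0.18, limma adjusted p = 0.700), which was 0.29 without 52419, 0.075 without 52424 and 0.025 without 53105.

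Among transducers, 2 of 15 tested genes were lower at an unadjusted p under 0.05 (13.3%, against 8.18% of all genes tested). Tcf7, a TCF/LEF transcription factor that is itself a target, was at 32.5 ± 12.8 CPM in Cre and 44.6 ± 13.8 CPM in parental libraries, a log2 change of -0.49 (SE 0.14, limma adjusted p = 0.229), with the lower value in Cre in 6 of 6 pairs. Dvl1, which relays the signal from frizzled, had a log2 change of -0.20 (SE 0.089, limma adjusted p = 0.325), or -0.13 without line 52424. Ctnnb1, the beta-catenin gene, was at 2063 ± 885 CPM in Cre and 2040 ± 825 CPM in parental libraries, and was named after its values were seen.

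Of 10 tested beta-catenin target genes 7 had an estimate below 0, as had 50.1% of all genes tested. At an unadjusted limma p under 0.05, 4 were lower (40.0%, against 8.18% of all genes tested), namely Tcf7, Axin2, Myc and Notum. Without line 52205 the unadjusted limma p was 0.065 for Axin2 and 0.086 for Notum, against 0.021 for Tcf7 and 0.016 for Myc. For Myc this limma p was 0.078 without 52424, 0.058 without 53105 and 0.072 without 53371. For Axin2 it was 0.057 without 53369, and for Notum 0.088 without 52419, 0.056 without 52424 and 0.051 without 53105. Only Tcf7 stayed under 0.05 whichever pair was left out. Tcf7 and Notum are also counted in another list. The median log2 change over the list was -0.25. Axin2, the feedback scaffold protein most used as a readout of beta-catenin activity, was at 4.50 ± 3.13 CPM in Cre and 6.44 ± 4.29 CPM in parental libraries, a log2 change of -0.49 (SE 0.18, limma adjusted p = 0.290). It was lower in Cre in 5 of 6 pairs, with 2.24 CPM in Cre against 6.08 CPM in parental cells of line 52205 and 9.79 CPM in Cre against 14.4 CPM in parental cells of line 53369. In line 52424 it was at 6.33 CPM in Cre and 5.85 CPM in parental cells. Notum, a secreted enzyme that removes the lipid from WNT ligands and so also an extracellular antagonist, was at 3.85 ± 4.41 CPM in Cre and 6.18 ± 7.66 CPM in parental libraries (log2 change -0.58, SE 0.23, limma adjusted p = 0.295), and its log2 change was -0.39 without line 52205. Apcdd1, an antagonist at the cell surface, was at 38.7 ± 38.1 CPM in Cre and 34.8 ± 39.6 CPM in parental libraries (log2 change 0.38, SE 0.22, limma adjusted p = 0.426), and its log2 change was 0.17 without line 52424. With Igfbp4, these were the 3 of 11 other antagonists that could be tested, and limma with Benjamini-Hochberg adjustment called 0 of them.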

How the data were processed

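RNA of 6 Cre and 6 parental mouse pancreatic cancer cell cultures was measured by poly(A) sequencing, and the labels' protocols name no strand-marking step. Per the submitters' processing notes, the tools were FastQC 0.11.9, featureCounts and edgeR, with builds GRCm38 and mm10. No aligner is named in the sources used here. Values in the deposited linear table are a signal in CPM, that is, reads of a gene over an adjusted library size. Within 0.01 of a read, 100% of them were whole multiples of the library's smallest value above 0, and reads were recovered by division. The deposited log2 table holds 10903 of the 20432 genes, with Dkk2 and Dkk3 as the members in it.

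Entrez identifiers were named from RefSeq (GRCm38.p6, 19448 genes) and GENCODE (11 genes), and 973 stayed unnamed. Exon lengths are merged exons of the GENCODE basic set, and the annotation used in counting may differ. The 12734 genes at or above 1 CPM (of the column total) in at least 6 libraries were fitted as log2(CPM + 0.5) with limma-trend (limma 3.58.1, R 4.3.3), 2-sided, with cell line as a block and Benjamini-Hochberg adjustment, called under 0.05. The series design calls the lines isogenic pairs. Deviations from the group mean correlated at 0.73 to 0.95 within pairs, and all 12 libraries correlated best with their own line. Each line has 1 library per group. The p-values of the blocked fit therefore weigh the mean difference between Cre and parental cells against the spread of that difference over the 6 lines. Limma-trend first shrinks this spread towards a trend over all genes tested, so its p and SE do not rest on the gene's own spread alone.

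The members and lists were chosen with earlier results of these data known. Named pathway genes were the 2 with the smallest p in each list, and the 3 genes with the highest r for each member that passed the filter, and any other gene was named after its values were seen. Ratio intervals are exact binomial (95%) and cover counting error only, as does the floor of 3 reads. The fit was repeated with 2 pseudocounts, 2 filters and 2 scalings, on the deposited log2 table, unblocked, with library weights, without each pair, and with edgeR 4.0.16 and DESeq2 1.42.0 on recovered reads. The fits were also run on simulated reads, with the same dispersion for all genes and the same change in every line. Changes in the real data differ between lines, so nothing is read from that run about the calls given here. The labels give no batch or date.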

Additional observations from a re-analysis of the deposited data

Results flagged for a closer look

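Levels and pair differences of 6 members, as log2(CPM + 0.5), were searched for a value far from the others of its group in 18 groups of 6, where chance flags about 1 group in 20. In parental cells Frzb stood apart in line 52419, at 2.39, against -0.57 to -0.06 in the other 5 parental libraries. The pair difference of Frzb stood apart in line 53369, at 0.84, against -0.69 to -0.17 in the other 5 pairs. That difference rests on 17 reads in Cre and 6 reads in parental cells.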

How the results depend on the processing

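Over the 92 alternative values of the 6 members with reads above the floor, all moved by less than the spread between pairs (1 SD). Leaving out 1 of 6 pairs cannot move a mean by that much. The filters and the unblocked fit leave the mean unchanged by construction. Nothing is therefore read from these settings staying within the spread. The sign changed in 1 value, Sfrp1 at 0.096 with library weights against -0.24. Leaving out 1 pair at a time, the mean log2 change ran from -1.22 to -1.02 for Dkk2, from -1.13 to -0.82 for Dkk3, from 0.036 to 0.61 for Dkk1, from -0.44 to -0.031 for Sfrp1, from 0.19 to 0.66 for Sfrp2 and from -0.37 to -0.067 for Frzb. Over the other settings run, Dkk2 lay between -1.25 and -1.04 and Dkk3 between -1.17 and -0.90. Dkk1 went from 0.18 with a pseudocount of 0.1 to 0.96 with edgeR. Sfrp2 and Frzb were not fitted with library weights, edgeR, DESeq2 or the deposited log2 table, which also lacks Dkk1 and Sfrp1.

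WNT pathway genes called lower numbered 0, except 1 with DESeq2, and 0 were called higher in every setting. At an unadjusted p under 0.05 the count of 9 lower genes became 0 with no replicate block and ran from 5 to 10 with each pair left out, and the count of 0 higher genes became 1 with no filter on low values, 1 with library weights and 0 to 2 with each pair left out. The causes were not tested. Over all genes, the count called lower was 3, against 0 with no replicate block, 33 with library weights, 5 with edgeR and 208 with DESeq2. Depth limits what can be said of Wif1, of Frzb outside line 52419, and of Dkk2 and Dkk3 in line 52424.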
